A study of Mus musculus with 2 samples.

Results

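The let-7 family genes are the miRNA genes whose main product is a let-7 miRNA or its close relative miR-98. The 10 members with a row of their own in the deposited tables were Mirlet7a-1, Mirlet7a-2, Mirlet7b, Mirlet7c-1, Mirlet7c-2, Mirlet7d, Mirlet7f-2, Mirlet7g, Mirlet7i and Mir98, out of 1973 counted miRNA genes. They were taken by family name and gene identifier, with no threshold on level. Mirlet7e and Mirlet7f-1 have no row under their own name and are described separately below, as are the let-7-like Mir7j and Mir7k. Small RNA of embryonic facial prominence, the tissue that builds the face and jaws, was sequenced from mouse embryos of strain B6NCrl at 15.5 days. The design holds 1 group of 2 libraries, with 78 embryos pooled for replicate 1 and 62 for replicate 2, male and female together and labelled healthy. No treatment, transgene or control group is given, so levels are described and the only comparison is replicate 2 against replicate 1.

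An miRNA is cut from a hairpin transcript and guides silencing complexes to messenger RNAs, mostly by pairing of its seed, bases 2 to 8, with the target. Members of the let-7 family share a seed, are low in early embryos and stem cells, and accumulate as tissues differentiate. Their known targets include Lin28a, Hmga2 and Ras family messages. LIN28 proteins in turn bind let-7 precursors and block their maturation.

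The mature 5p sequences are shown first because shared and differing bases decide which reads can be assigned to 1 gene. They were copied from RefSeq (GRCm38.p6), with the seed in capitals, and all 10 members matched an entry.
let-7a (Mirlet7a-1, Mirlet7a-2): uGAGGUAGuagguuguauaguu
let-7b (Mirlet7b): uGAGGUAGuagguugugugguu
let-7c (Mirlet7c-1, Mirlet7c-2): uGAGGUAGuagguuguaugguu
let-7d (Mirlet7d): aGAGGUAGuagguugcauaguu
let-7e (Mirlet7e): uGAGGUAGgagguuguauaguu
let-7f (Mirlet7f-1, Mirlet7f-2): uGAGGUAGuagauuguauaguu
let-7g (Mirlet7g): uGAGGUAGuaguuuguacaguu
let-7i (Mirlet7i): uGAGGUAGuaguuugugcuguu
miR-98 (Mir98): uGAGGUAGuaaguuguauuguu

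All of them carried the seed GAGGUAG and were 22 bases long, so reads per gene and reads per mature base rank them alike. Counted from 1 at the 5′ end and relative to let-7a, let-7c differed by A19G, let-7e by U9G and let-7f by G12A. The let-7b sequence differed by A17G and A19G, let-7d by U1A and U16C, let-7g by G12U and U18C, and miR-98 by G11A and A19U. The let-7i sequence was farthest from let-7a, with G12U, A17G, U18C and A19U. All substitutions lay outside bases 2 to 8.

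Some let-7 genes were among the most abundant by reads that could be assigned to 1 miRNA gene, and others lay near the middle of the detected genes. Mirlet7i ranked 2 in replicate 1 and 1 in replicate 2 among 333 detected genes, a detected gene being one with at least 10 reads in each library. Mirlet7g ranked 5 and 4. The lowest member, Mirlet7c-1, ranked 163 and 161. Together the 10 members held 14.9% of assigned reads in replicate 1 (95% exact Clopper-Pearson interval 14.89 to 14.97) and 15.7% in replicate 2 (15.71 to 15.77). The mean share was 15.3% ± 0.574 (SD, n = 2), and 9.42% when reads mapped to several places were counted in the totals. The 9.42% can be too low, because let-7 reads among the multiply mapped were not added to the members. The 15.3% leaves those reads out as well, so it holds only for assigned reads. These intervals cover counting error only. Bulk tissue was measured, so a level cannot be told apart as many cells with little let-7 or few cells with much.

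The libraries held 2978463 assigned reads in replicate 1 and 6408008 in replicate 2, so 1 read was worth 0.334 and 0.157 CPM (reads per 1000000 assigned reads, with library sizes scaled by TMM factors). A further 1789456 and 4186211 reads mapped to several places and were given to no gene. Markers of the labelled tissue were present in both libraries. The epithelial Mir203 had 90474 and 67536 CPM, and the epithelial Mir200c had 9941 and 10908 CPM. The mesenchymal Mir214 had 16830 and 15114 CPM, and the mesenchymal Mir199b had 1030 and 1247 CPM. The cartilage Mir140 had 13158 and 12720 CPM and the muscle Mir206 had 7850 and 5903 CPM. Far lower were the mesenchymal Mir199a-1 at 13.7 and 17.4 CPM and the muscle Mir133b at 79.9 and 71.2 CPM. Mir199a-2, the other Mir199a gene and not on the marker list, had 187 and 216 CPM. Whether the Mir199a counts are low because reads mapped to several places was not tested. Liver Mir122 was low at 30.4 and 70.1 CPM. Heart Mir208b had 87.5 and 82.3 CPM, while the other heart gene, Mir208a, had 3.01 and 4.55 CPM from 9 and 29 reads. Blood Mir451a had 111 and 167 CPM. Of the 17 marker genes with a row, 8 had more CPM in replicate 2, 8 had fewer and 1 had no read in either. Their part in the let-7 ratios was not tested. The gene without reads was the neuronal Mir124a-1, whose mature sequence is encoded at several loci, so its reads can be among those given to no gene.

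**Figure D1:**
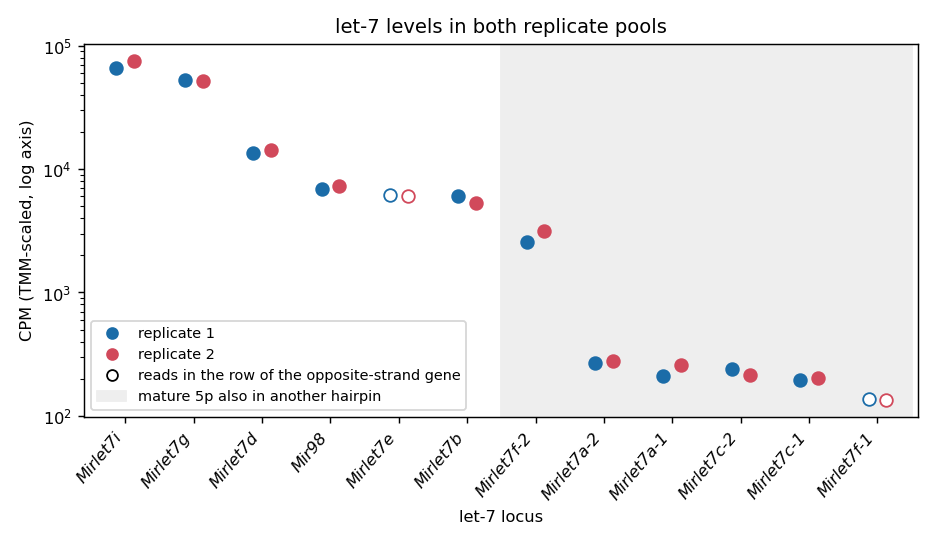
CPM (log axis) of each let-7 locus in replicate 1 (blue) and replicate 2 (red), 1 point per library. Shading marks loci whose mature 5p sequence also lies in another hairpin, and open points are reads counted in the row of the gene on the opposite strand. The unshaded loci all lie at or above 5308 CPM, and Mirlet7f-2, the highest shaded locus, reaches 3125 CPM.

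Among reads assigned to 1 gene, Mirlet7i and Mirlet7g led the family. Mirlet7i lies on chromosome 10 (mm10, 122985640 to 122985724, minus strand) and overlaps an exon of the transcribed pseudogene D630033A02Rik. It had 65771 CPM in the first pool and 75199 CPM in the second, a mean of 70485 ± 6667 CPM (SD, n = 2). Mirlet7g lies in an intron of Wdr82, which encodes a chromatin-associated WD repeat protein, on chromosome 9 (106178840 to 106178927, plus strand). It had 52839 and 52039 CPM, a mean of 52439 ± 566 CPM. The order of both genes was the same in each library, with 1.24 times as many reads of Mirlet7i in replicate 1 (95% exact interval 1.24 to 1.25) and 1.45 times as many in replicate 2 (1.44 to 1.45). Together they supplied 79.8% of the reads assigned to the 10 members in replicate 1 and 80.4% in replicate 2. These shares leave out multiply mapped let-7 reads and reads of the Mirlet7e and Mirlet7f-1 strands.

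Mirlet7d, Mir98 and Mirlet7b formed the middle of the family. Mirlet7d, an exon-overlapping hairpin of the long noncoding gene 6720427I07Rik on chromosome 13 (48536012 to 48536114, minus strand), had 13566 and 14245 CPM in replicates 1 and 2. Mir98 lies in an intron of Huwe1, a ubiquitin ligase gene, on the X chromosome (151913214 to 151913321, plus strand) and had 6880 and 7293 CPM. Mirlet7b overlaps an exon of the noncoding gene Lncppara on chromosome 15 (85707319 to 85707403, plus strand) and had 6025 and 5308 CPM. Their values did not overlap, and the order Mirlet7d, Mir98, Mirlet7b held in both libraries. The smallest step was between Mir98 and Mirlet7b, at 1.14-fold in replicate 1 and 1.37-fold in replicate 2.

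The remaining 5 members, each with a mature sequence encoded more than once, lay lower. Mirlet7f-2, in the same Huwe1 intron region as Mir98 (X chromosome, 151912346 to 151912428, plus strand), had 2573 CPM in replicate 1 and 3125 CPM in replicate 2. Mirlet7a-2 had 268 and 279 CPM, and Mirlet7a-1, on chromosome 13 (48538179 to 48538272, minus strand), had 209 and 257 CPM. Mirlet7c-2, on chromosome 15 (85706603 to 85706697, plus strand), had 240 and 215 CPM, and Mirlet7c-1 had 195 and 202 CPM. The step from Mirlet7f-2 down to Mirlet7a-2 was 9.61-fold in replicate 1 and 11.2-fold in replicate 2. Among the lowest 4 genes the values lay close. Mirlet7a-1 and Mirlet7c-2 changed places between the libraries, and their means differed by 5.71 CPM, less than the larger SD of 33.8 CPM. Mirlet7a-2 exceeded Mirlet7a-1 by 40.4 CPM on average, and Mirlet7c-2 exceeded Mirlet7c-1 by 28.9 CPM, against larger SDs of 33.8 and 18.2 CPM.

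The lower 5 members were exactly those whose mature 5p sequence also occurs in another RefSeq hairpin. Members with a 5p sequence of their own (Mirlet7b, Mirlet7d, Mirlet7g, Mirlet7i and Mir98) ranged from 5308 to 75199 CPM over both libraries. Members that share it ranged from 195 to 3125 CPM, with no overlap. The first 5 supplied 97.7% of the reads assigned to the 10 members in replicate 1 and 97.4% in replicate 2, a mean of 97.5% ± 0.164 (SD, n = 2). A read that holds only a shared sequence maps to several places and is missing from the gene counts, so the values of Mirlet7a-1, Mirlet7a-2, Mirlet7c-1, Mirlet7c-2 and Mirlet7f-2 are uncertain and can be too low. How many reads of the multiply mapped pool belong to let-7 was not tested, because the pool is deposited as a single line.

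Where copies stop matching can be read from the hairpins. Below, the shared mature 5p sequence is in lower case and the next 5 bases of each hairpin are in capitals.
Mirlet7a-1: ugagguaguagguuguauaguuUUAGG
Mirlet7a-2: ugagguaguagguuguauaguuUAGAG
Mirlet7c-1: ugagguaguagguuguaugguuUAGAG
Mirlet7c-2: ugagguaguagguuguaugguuUUGGG
Mirlet7f-1: ugagguaguagauuguauaguuGUGGG
Mirlet7f-2: ugagguaguagauuguauaguuUUAGG

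A stretch starting with the mature 5p end had to be 23 bases long to be found in no other of the 1005 RefSeq hairpins for the let-7f copies, and 24 bases for the let-7a and let-7c copies. For Mirlet7b, Mirlet7e, Mirlet7g and Mirlet7i 17 bases sufficed, and for Mirlet7d and Mir98 no more than 15, the shortest length tried. Both let-7f hairpins, apart at the base that follows the mature sequence, need 1 base less than the let-7a and let-7c copies. On the 3p arm, Mirlet7a-1 and Mirlet7c-2 share the whole 22 bases of their annotated product.
let-7a-1-3p and let-7c-2-3p: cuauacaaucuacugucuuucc
The other 3p products of the family were found in no other RefSeq hairpin. The genome outside annotated hairpins was not searched, and the deposited counts do not separate the arms or read lengths.

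**Figure D2:**
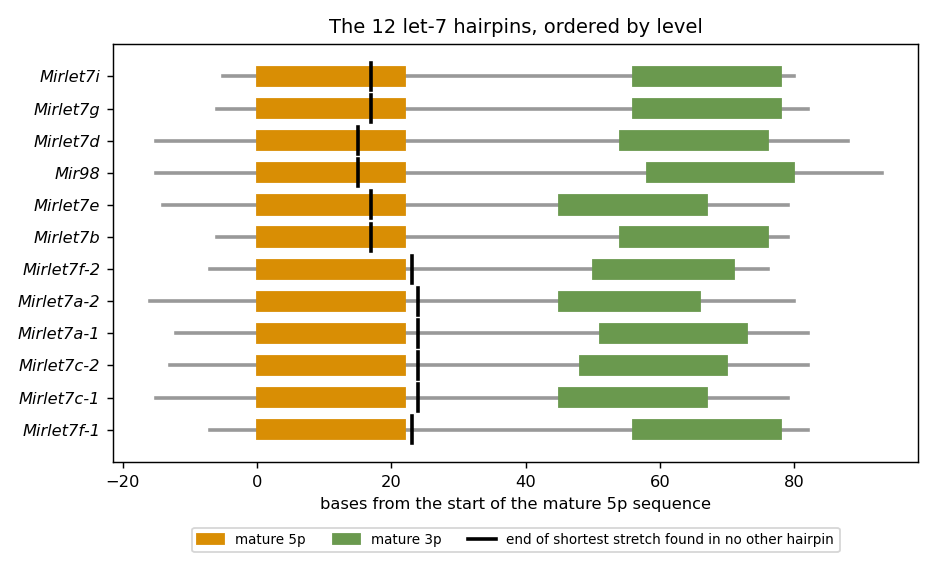
Drawing to scale of the 12 let-7 hairpins, ordered by mean CPM from top to bottom and aligned at the start of the mature 5p sequence (x axis in bases), with 5p products in orange and 3p products in green. The black mark is the end of the shortest stretch from the 5p start that is found in no other RefSeq hairpin. It lies inside the mature sequence in the upper 6 hairpins and beyond it, at 23 or 24 bases, in the lower 6.

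Reads from the strand of Mirlet7e and Mirlet7f-1 were present under other names. The annotation used for the deposited counts has a row for Gm25927, on the opposite strand of chromosome 17 (17830343 to 17830459), which spans the Mirlet7e hairpin (17830352 to 17830444, plus strand, in an intron of Spaca6, a sperm membrane protein gene). All 18439 reads in replicate 1 and 38407 reads in replicate 2 of that row lay on the strand of Mirlet7e, and 0 lay on that of Gm25927. They correspond to 6161 and 6023 CPM, a mean of 6092 ± 97.8 CPM (SD, n = 2). In each library this value lay between those of Mir98 and Mirlet7b, close above Mirlet7b in replicate 1. The let-7e sequence was found in no other hairpin, as for the upper 5 members. Likewise, Gm24111 spans Mirlet7f-1 on chromosome 13 (48537829 to 48537917, minus strand) from the other strand. Of its reads, 413 in replicate 1 and 848 in replicate 2 lay on the Mirlet7f-1 strand, against 0 and 2 on its own. The Mirlet7f-1 strand thus had 138 and 133 CPM and was the lowest of the 12 loci. Its sister copy Mirlet7f-2 had 18.6 times as many reads in replicate 1 (95% exact interval 16.9 to 20.6) and 23.5 times as many in replicate 2 (21.9 to 25.2). Both let-7f copies give the same mature sequence, so this ratio holds only for reads that could be assigned. With both loci added, the family summed to 16.0% ± 0.559 of assigned reads (SD, n = 2).

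The hairpins themselves varied in length and in a LIN28-related motif. RefSeq and GENCODE gave the same position for all 12, at 83 bases (Mirlet7f-2) to 108 bases (Mir98). GGAG, the letters that LIN28 zinc knuckles are known to bind in let-7 precursors, was searched on the hairpin strand. Searched anywhere in the hairpin, it was found in 9 of 12 let-7 hairpins and in 44.5% of all 1005 RefSeq hairpins. In each of those 9 a match lay between the 5p and 3p products, a position that was not examined over all hairpins. A further match lay inside the mature 5p sequence of Mirlet7e and beyond the 3p product in Mirlet7c-1. It was not found in Mirlet7b, Mirlet7c-2 or Mir98. The hairpins of Mirlet7i, the highest member, and Mirlet7b are shown to make this visible, with the mature 5p sequence in capitals.
Mirlet7i: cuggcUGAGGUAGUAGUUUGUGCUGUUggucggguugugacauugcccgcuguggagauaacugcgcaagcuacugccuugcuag
Mirlet7b: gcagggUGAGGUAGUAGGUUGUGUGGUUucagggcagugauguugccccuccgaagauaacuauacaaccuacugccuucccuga
By assigned reads, Mir98 and Mirlet7b, which lack the motif, lay in the middle of the family and Mirlet7c-2 among the lowest. The count of Mirlet7c-2 is uncertain because its mature sequence is shared. Any link between the motif and level was not tested.

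Levels within a shared host differed widely. On chromosome 13, Mirlet7d, Mirlet7f-1 and Mirlet7a-1 lie in 1 noncoding host gene, 1714 and 261 bases apart. Mirlet7d had 64.9 times as many assigned reads as Mirlet7a-1 in replicate 1 and 55.4 times in replicate 2. On chromosome 15, Mirlet7c-2 and Mirlet7b lie 621 bases apart, and Mirlet7b had 25.1 and 24.7 times as many reads. On the X chromosome, Mirlet7f-2 and Mir98 lie 785 bases apart, and Mir98 had 2.67 and 2.33 times as many. In each of these loci the gene with a shared mature sequence was the lower one. The ratios for such genes carry the same uncertainty as their counts.

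The replicate pools were then compared gene by gene, to see how far the let-7 genes vary between pools of this tissue. The test called 8 of the 10 members, 5 of them with a larger part of the reads of replicate 2 and 3 with a larger part of those of replicate 1. The test was a two-sided exact binomial test of the reads of each gene in the libraries with Benjamini-Hochberg adjustment over 333 genes. The background was 53.5% of all tested genes called, 25.8% toward replicate 2 and 27.6% toward replicate 1. It depends on read number, because genes with more reads are called more easily. Among genes with at least 100 reads in each library, which all 10 members have, 66.8% were called. The test sets 1 library against 1, so it covers counting error and not the spread between pools. An exact permutation of the 2 libraries cannot give a p below 0.5. By size, no member differed by more than 1.5-fold, against 11.4% of all tested genes, and the largest difference was 1.23-fold. The median size of the log2 ratio was 0.12 over the members and 0.21 over all tested genes, while the signed medians were 0.07 and -0.01. Tested genes reach down to 10 reads, where counting error is larger, and were not matched to the members by level. The smaller differences of the members are thus not shown to be particular to let-7.

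**Figure D3:**
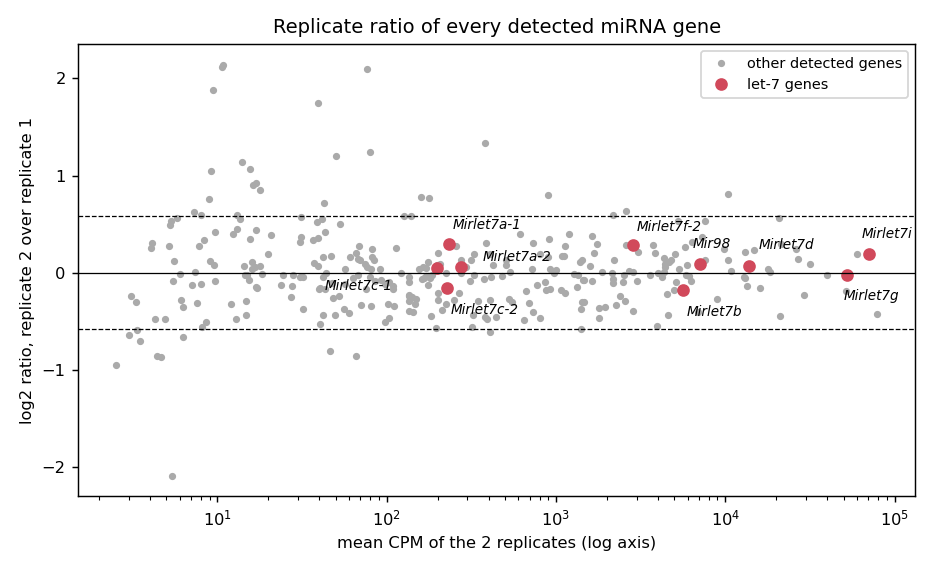
Replicate log2 ratio (2 over 1) of CPM against mean CPM (log axis) for the 333 detected genes, with the 10 let-7 genes in red and dashed lines at 1.5-fold. All let-7 genes lie between the dashed lines, from -0.18 for Mirlet7b to 0.30 for Mirlet7a-1.

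Higher in replicate 2 were Mirlet7a-1, Mirlet7f-2, Mirlet7i, Mir98 and Mirlet7d. Mirlet7a-1 had 626 reads in replicate 1 and 1639 in replicate 2, a log2 ratio of 0.30 (95% interval 0.16 to 0.43, exact binomial adjusted p = 2.59e-05). Mirlet7f-2 had 7701 and 19930 reads, a log2 ratio of 0.28 (0.24 to 0.32). Mirlet7i, with 196846 and 479551 reads, had a log2 ratio of 0.19 (0.19 to 0.20). This is a 1.14-fold difference. Mir98 had a log2 ratio of 0.08 (0.06 to 0.11) and Mirlet7d one of 0.07 (0.05 to 0.09).

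Higher in replicate 1 were Mirlet7b, Mirlet7c-2 and Mirlet7g. Mirlet7b had 18033 reads in replicate 1 and 33852 in replicate 2, a log2 ratio of -0.18 (-0.21 to -0.16). Its neighbour Mirlet7c-2 had 719 and 1368 reads, a ratio of -0.16 (-0.29 to -0.03, exact binomial adjusted p = 0.0275), and lost its call with DESeq2 size factors (exact binomial adjusted p = 0.0689). Over all alternatives its adjusted p ranged from 0.0153 to 0.230. Mirlet7g had 158142 and 331856 reads and a ratio of -0.02 (-0.03 to -0.01, 1.02-fold), whose direction turned and whose call was lost with DESeq2 size factors (0.0025, exact binomial adjusted p = 0.698). Mirlet7a-2 had 801 and 1782 reads and a ratio of 0.06 (-0.06 to 0.18). Mirlet7c-1 had 585 and 1285 reads and a ratio of 0.04 (-0.10 to 0.19). Neither was called, and both intervals span 0. The ratios of Mirlet7c-2, Mirlet7a-2 and Mirlet7c-1, whose mature sequences are shared, hold only for reads that could be assigned.

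Genes of 1 locus had similar or differing ratios, depending on the locus. On chromosome 15 the intervals of Mirlet7b and Mirlet7c-2 overlapped, both below 0. On the X chromosome the interval of Mirlet7f-2 lay above that of Mir98. On chromosome 13 the interval of Mirlet7a-1 lay above that of Mirlet7d, while the reads from the Mirlet7f-1 strand had a ratio of -0.05 (-0.22 to 0.12). These intervals cover counting error only.

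Of the let-7 genes, 3 lie beside members of the Mir99, Mir100 and Mir125 families, which have other seeds. Mirlet7c-1 lies 656 bases from Mir99a in the noncoding gene Mir99ahg on chromosome 16 (77599657 to 77599750, plus strand). Mirlet7e lies 94 bases from Mir99b and 367 bases from Mir125a. Mirlet7a-2 lies 5211 bases from Mir100, in an intron of 3110039I08Rik and Gm49317 on chromosome 9 (41536716 to 41536811, plus strand). Farther off, Mir125b-2 lies 46522 bases from Mirlet7c-1, and Mir125b-1 lies 45114 bases from Mirlet7a-2. Of the 6 neighbours 4 were called toward replicate 2 and none toward replicate 1, against 25.8% and 27.6% of all tested genes, with a median log2 ratio of 0.19. Those shares take in genes with as few as 10 reads, which are called less often. Among genes with at least 100 reads in each library, which all 6 neighbours have, 66.8% were called in either direction. Mir100 had a ratio of 0.56 (0.55 to 0.58), against 0.06 for Mirlet7a-2. Mir99b had a ratio of 0.23 (0.21 to 0.24), against -0.03 (-0.06 to -0.01) for the Mirlet7e strand, and Mir99a had 0.20 (0.19 to 0.20), against 0.04 for Mirlet7c-1. The Mir125 genes had ratios of -0.004 (-0.04 to 0.03) for Mir125a, 0.002 (-0.08 to 0.09) for Mir125b-2 and 0.18 (0.12 to 0.24) for Mir125b-1. Their intervals overlapped those of the Mirlet7e strand, Mirlet7c-1 and Mirlet7a-2, in that order. In level, Mir99a at 55719 and 63844 CPM stood far above Mirlet7c-1, while Mir99b at 13639 and 15974 CPM had 2.21 and 2.65 times the reads of the Mirlet7e strand.

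**Figure D4:**
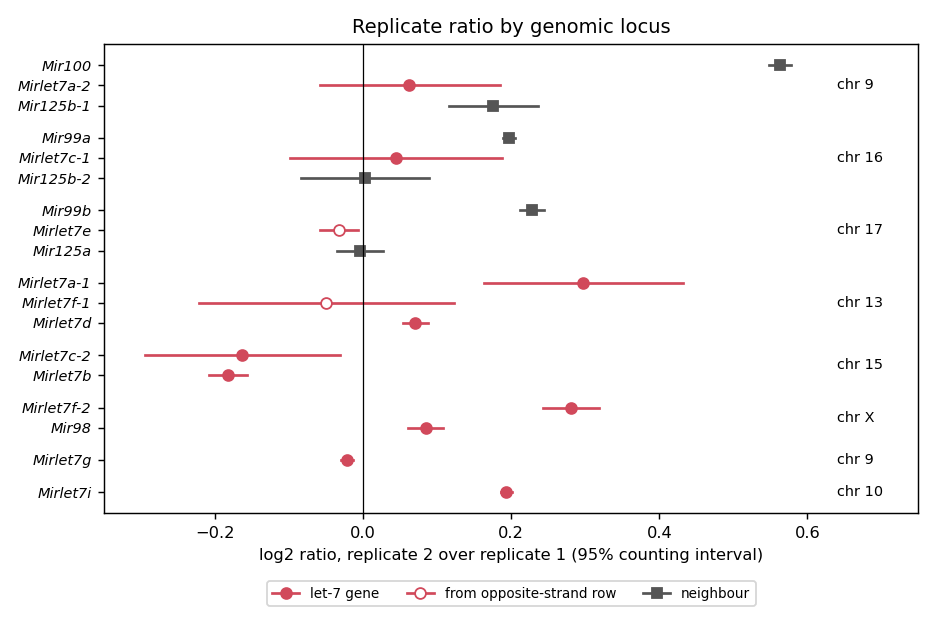
Log2 ratio of replicate 2 over replicate 1 with its 95% counting interval for the let-7 genes (red circles, open where the reads came from the row of the gene on the opposite strand) and their 6 neighbours (grey squares), grouped by locus. Mir100 is farthest to the right at 0.56, and Mirlet7b and Mirlet7c-2 are the farthest to the left.

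The genes closest in level to the leading members were found by the distance between log2 CPM values over both libraries. Nearest to Mirlet7i were Mir99a (distance 0.34) and Mir203 (0.49), and nearest to Mirlet7g were Mir23b (0.13) and Mir99a (0.30). With 2 libraries this likeness reflects level more than pattern.

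Relatives of let-7 outside the 12 loci were low. In RefSeq 2 further loci, Mir1961 and Mir7k, carry the seed GAGGUAG, and Mir202 and Mir7j differ from it in the last base.
let-7j (Mir7j): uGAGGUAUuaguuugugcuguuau
let-7k (Mir7k): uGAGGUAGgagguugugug
miR-202-3p (Mir202): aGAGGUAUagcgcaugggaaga
Mir1961 had 0 reads in both libraries, which allows up to 3 reads each, or 1.00 CPM at the depth of replicate 1 and 0.470 CPM at that of replicate 2. Mir7k had 0 and 1 reads, and Mir202 had 0 and 2. Mir7j, chosen after its values were seen, had 301 and 963 reads, or 101 and 151 CPM. Over the 22 bases of let-7i, let-7j differs from it by G8U, which lies in the seed. Mir7j was called toward replicate 2, with a log2 ratio of 0.59 (0.40 to 0.78, exact binomial adjusted p = 9.64e-10). Mirlet7i, whose mature sequence is so close, had 196846 and 479551 reads. Whether any reads counted for Mir7j came from let-7i was not tested.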

How the data were processed

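Each library has a table of raw counts per miRNA gene, as the authors deposited it, on mm10 and GENCODE M4 per the labels and the list of files, with reads on either strand, on the gene's strand and on the opposite strand. The strand columns were read from the values. The aligner is not given in the sources used here, nor is the counter. Library sizes leave out the summary lines (unmapped, multiply mapped and outside genes), together 49.0% and 54.5% of reads. Names and positions came from GENCODE M21 (GRCm38) by gene identifier, with 1894 of 1973 matched, and sequences from RefSeq.

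Counts on either strand were scaled with TMM in edgeR 4.0.16 (R 4.3.3) and reported in CPM. Genes with at least 10 reads in each library were tested with an exact binomial test in scipy 1.17.1 at the ratio of effective library sizes, with a threshold of 0.05 on the Benjamini-Hochberg adjusted p. A quasi-likelihood fit had no residual degrees of freedom. The test was checked on simulated data. Alternatives used DESeq2 1.42.0 size factors, total counts, other filters, the gene's strand, summed copies, each replicate left out and other totals. Separate embryo pools make the replicates biological. The members and lists were chosen with earlier results of these data known. Named genes were the members, their neighbours, seed relatives and the nearest genes in level.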

Additional observations from a re-analysis of the deposited data

Results flagged for a closer look

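Reads outside the main measurement were found for the let-7 genes that have no row of their own. The row of Gm25927 had 18439 reads (replicate 1) and 38407 reads (replicate 2) on the strand of Mirlet7e, far above the 3 reads that a count of 0 allows. The row of Gm24111 had 413 and 848 reads on the strand of Mirlet7f-1. There were no control samples to compare with.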

How the results depend on the processing

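The share of assigned reads held by the 10 members, 15.3%, moved to 9.42% when reads mapped to several places were added to the totals, to 16.6% without Mir203 in the totals and to 13.9% with reads divided by gene length. Those multiply mapped reads were added to the totals only and not to the members, so 9.42% can be too low. The 15.3% leaves them out of members and totals alike. Adding the Mirlet7e and Mirlet7f-1 strand reads, an alternative chosen after seeing the data, gave 16.0%. With 1 replicate left out the share is the value of the other, 14.9% to 15.7%, and the part held by genes with a mature sequence of their own was 97.4% to 97.7%, which is no check of stability with 2 libraries. The log2 ratio of Mirlet7g turned to 0.0025 with DESeq2 size factors. The call of Mirlet7c-2 was lost with DESeq2 size factors (-0.14, exact binomial adjusted p = 0.0689), without a filter (-0.16, adjusted p = 0.0553) and when copies with 1 mature sequence were summed (-0.071, adjusted p = 0.230). Summing turned Mirlet7c-1 to -0.071 and brought a call for Mirlet7a-2 (0.17, adjusted p = 0.000576). The number of members called, 8 as reported, was 6 with DESeq2 size factors (53.5% of all tested genes called), 7 without a filter (26.3%) and 7 of 8 units with copies summed (55.1%). It was 8 with at least 100 reads (66.8%), with total-count scaling (53.2%) and on the gene's strand (52.6%). Of 60 recomputed log2 ratios of members, 54 kept their direction and side of the threshold. Depth limits the lowest 4 members most, whose 585 to 801 reads in replicate 1 left intervals 0.24 to 0.29 wide on the log2 scale.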
